A study of Rattus norvegicus with 3 samples.

Results

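The genes described here are the receptor and enzymes of endocannabinoid signalling: the CB1 cannabinoid receptor gene Cnr1, the 2-arachidonoylglycerol (2-AG) synthases Dagla and Daglb, the 2-AG hydrolases Mgll and Abhd6, the N-acylethanolamine synthase Napepld and the anandamide hydrolase Faah. They were chosen by name, and all 7 were found, each on 1 of the 23098 features of the count tables. The tables came from single-nucleus RNA sequencing of nucleus accumbens punches from outbred Wistar rats of 16 weeks, sorted by their behaviour into low and high anxiety. The 3 groups were low anxiety rats without treatment, high anxiety rats without treatment, and high anxiety rats given urolithin A (a compound that gut bacteria make from plant polyphenols) for 2 months. Each group was 1 library made from 5 pooled hemispheres, so animals could not be told apart, there were no replicates and no test was made.

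Endocannabinoids are lipids made on demand in the membrane of the receiving neuron, from where they travel back across the synapse and, through CB1 on the axon terminal, lower transmitter release. Diacylglycerol lipases make 2-AG from diacylglycerol, and monoacylglycerol lipase (Mgll) and Abhd6 break it down; Napepld is a source of anandamide and related amides, and Faah hydrolyses them. In the striatum, which includes the nucleus accumbens, CB1 is known for its high level in fast-spiking interneurons and on the terminals of cortical inputs and of medium spiny neurons, the inhibitory output cells.

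The deposited tables held counts of unique molecular identifiers (UMIs, each standing for 1 captured transcript), 16728049, 22095390 and 19162530 of them by library. Here and below, 3 values given by library are those of low anxiety first, then high anxiety, then urolithin A. After filtering, 3379, 3694 and 3421 nuclei were analysed, with medians of 3952, 4549.5 and 4726 UMIs. Libraries shared 4 to 6 cell barcodes with each other. Nuclei fell into 26 clusters, which were named from fixed marker genes, so that each class is "like" the cell type it is called after: D1 and D2 medium spiny neurons (the direct and indirect pathway cells, 2067 and 1591 nuclei), eccentric medium spiny neurons (929), GABAergic interneurons (335), glutamatergic neurons (318), astrocytes (488), oligodendrocytes (2672), their precursors (408), microglia (631) and smaller classes. Among the own markers of these 9 classes, the sole one at 0 in a library was Vip, 1 of the 17 interneuron markers, in urolithin A. Glutamatergic neurons, which neighbouring regions hold and the accumbens is not known to, numbered 99, 198 and 21 nuclei by library, and neuroblasts 40, 121 and 8. Levels are given as CPM, the UMIs of a gene scaled to a fixed UMI total of the class, and all intervals are 95% intervals that cover counting error only. Since capture differs between genes, levels are compared between classes for 1 gene and not between genes.

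Over all nuclei kept, the 7 genes had between 623 UMIs (Napepld) and 10123 UMIs (Abhd6). Their levels over all nuclei were close in the 3 libraries for Dagla, Mgll and Abhd6 and less so for Cnr1, Daglb and Napepld. Cnr1 stood at 32.9 CPM (30.1 to 35.9), 40.1 (37.4 to 42.9) and 29.3 (26.8 to 31.9) by library, and was thus highest in high anxiety. Daglb, at 45.3, 50.8 and 43.3 CPM, Faah, at 37.3, 40.8 and 37.3, and Napepld, at 10.3, 13.3 and 10.8, were also highest in high anxiety. Abhd6 was at 179, 192 and 193 CPM, Mgll at 156, 150 and 149 CPM and Dagla at 38.7, 38.5 and 36.1 CPM in the same order. Levels over all nuclei also move with the mix of classes, and the classes differed far more than the libraries did. The share of each gene's UMIs held by each class is drawn in the plot of UMI sources.

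**Figure D1:**
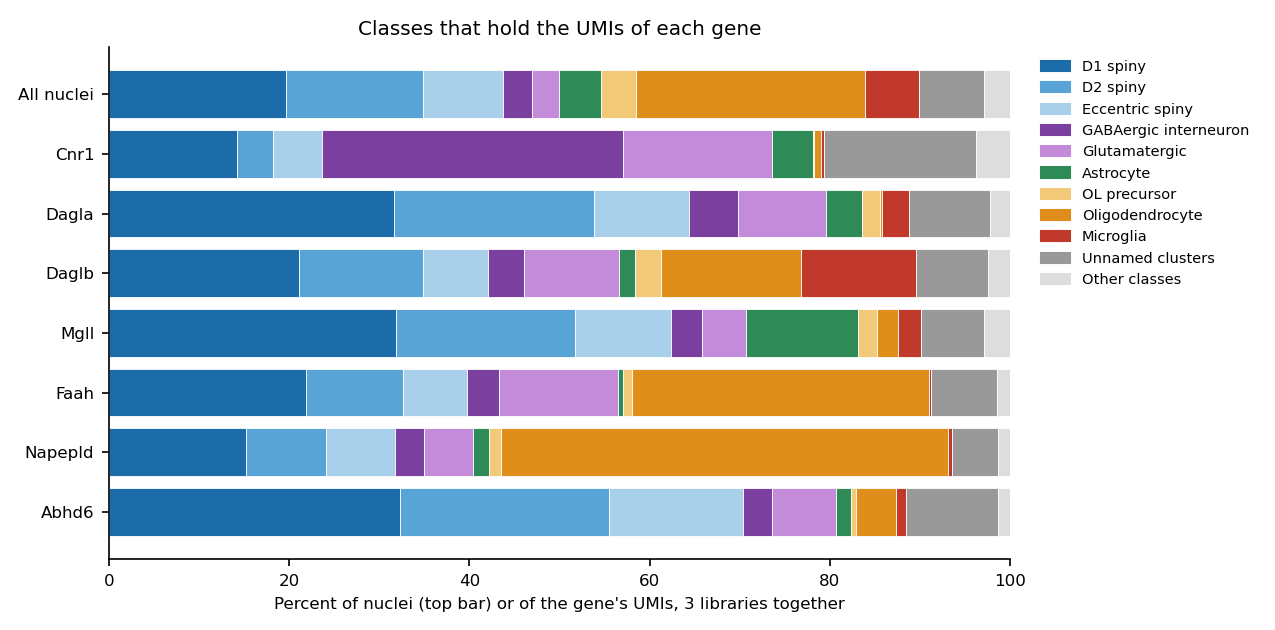
Stacked bars of the percent of nuclei (top bar) and of the percent of each gene's UMIs held by each class, with the 3 libraries pooled. GABAergic interneurons were 3.19% of nuclei and held 33.4% of Cnr1 UMIs, and oligodendrocytes were 25.5% of nuclei and held 49.6% of Napepld UMIs. These classes held 4.69% and 11.3% of the UMIs of all genes.

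Cnr1 was concentrated in GABAergic interneurons. Its level there was 243 CPM (204 to 289), 268 (236 to 303) and 224 (196 to 255) by library. The 3 intervals overlapped, and the class stood above every other class of at least 50 nuclei per library in all 3 libraries. With 335 nuclei it was 3.19% of all nuclei, held 4.69% of the UMIs of all genes and held 33.4% of Cnr1 UMIs (31.2% to 35.6%). Glutamatergic neurons came next among the larger neuronal classes at 76.1 CPM over the 3 libraries (range of the libraries 64.4 to 95.1), and astrocytes were at 67.3 CPM (47.5 to 79.4), ranges that overlapped each other. The small neuroblast class had 54 Cnr1 UMIs in all, at 188 and 129 CPM in low and high anxiety and 0 in the 8 nuclei of urolithin A.

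Among medium spiny neurons Cnr1 was low and unequal. D1 neurons had 17.9 CPM over the 3 libraries (13.7 to 23.8) and eccentric neurons 19.3 CPM (16.2 to 22.5), and these ranges overlapped. D2 neurons had 6.79 CPM, and their range of 4.86 to 8.15 lay below those of D1 and eccentric neurons in full. Oligodendrocytes held 14 Cnr1 UMIs in 2672 nuclei, precursors 3 in 408 and microglia 6 in 631, at 2.30, 2.41 and 5.19 CPM. These classes, which are not known as sites of much CB1 transcript, give the level that free RNA in the droplets may leave behind.

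Shares of nuclei with a Cnr1 UMI followed once every nucleus was thinned to 1500 UMIs, with shallower nuclei left out. Of GABAergic interneuron nuclei 26.3% (21.7% to 31.4%) had a Cnr1 UMI at that depth, against 9.66% (7.05% to 12.8%) of astrocytes, 2.23% (1.64% to 2.97%) of D1 neurons, 0.758% (0.392% to 1.32%) of D2 neurons and 0.398% (0.182% to 0.754%) of oligodendrocytes. The D2 interval overlapped the oligodendrocyte interval, so a Cnr1 share above background was not detectable in D2 nuclei at this depth, while their CPM intervals (5.32 to 8.54 and 1.26 to 3.86) lay apart. Without thinning, 48.7% of interneuron nuclei had a Cnr1 UMI at a median of 7003 UMIs, and 0.524% of oligodendrocyte nuclei at a median of 2116.

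**Figure D2:**
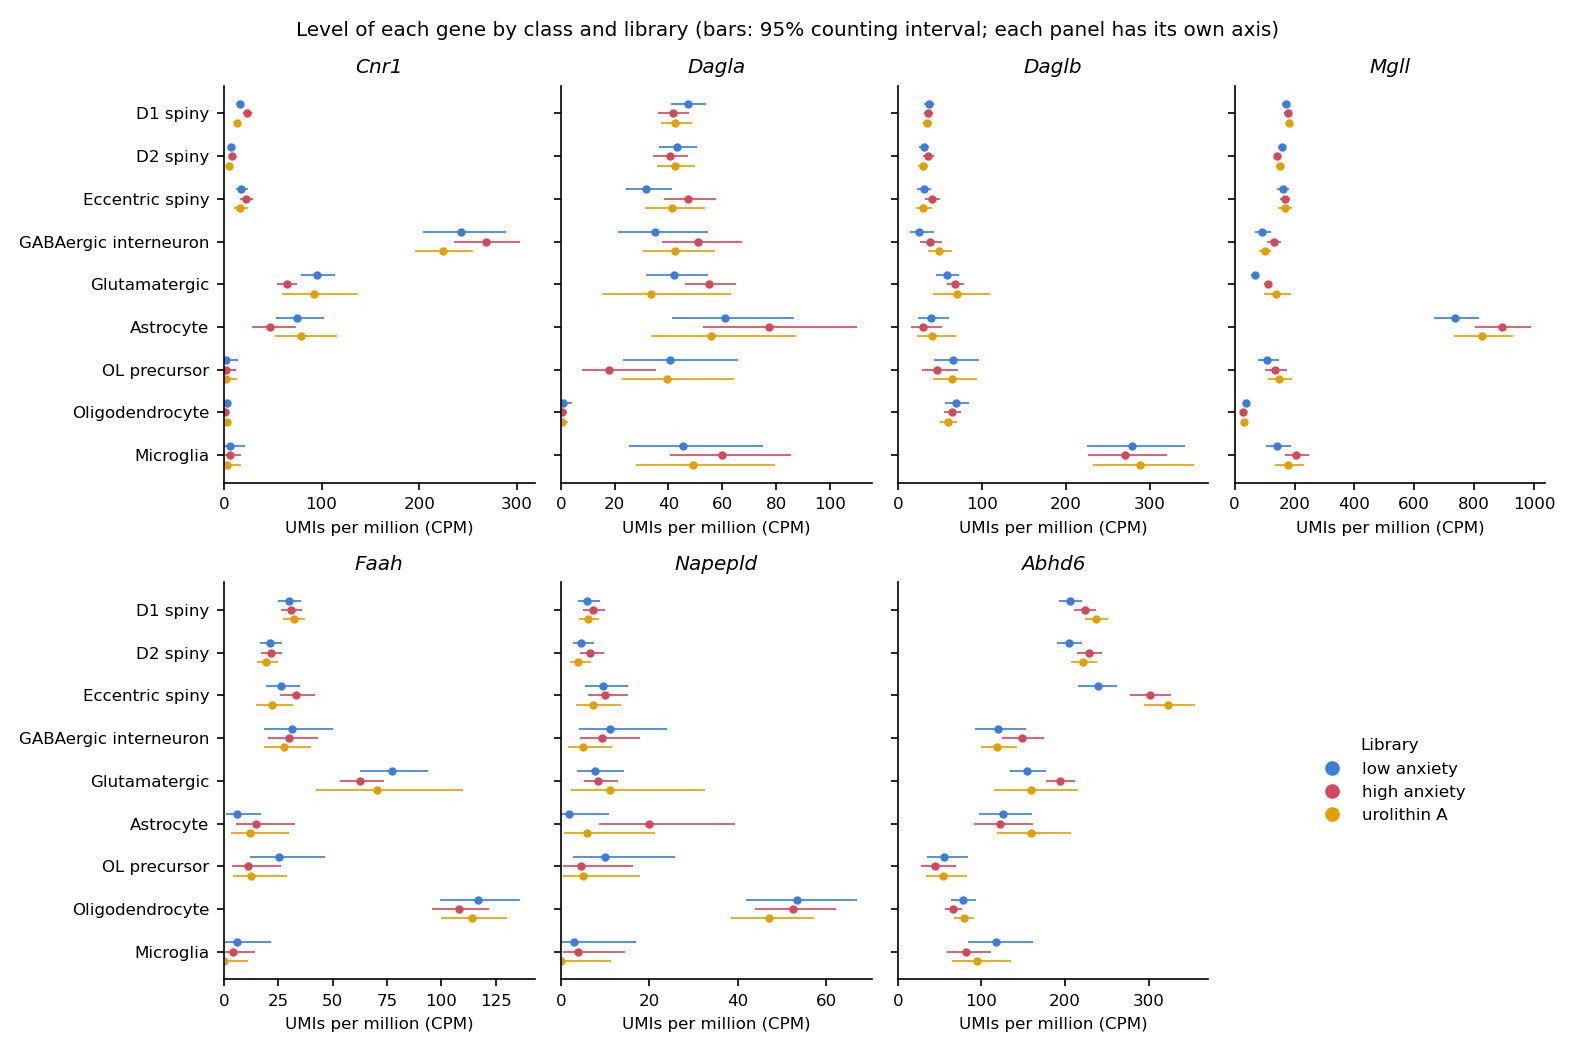
Level of each of the 7 genes (CPM, linear axes that differ between panels) in 9 classes. Points are the 3 libraries and bars 95% counting intervals; Cnr1 peaked in GABAergic interneurons, Daglb in microglia, Mgll in astrocytes, Faah and Napepld in oligodendrocytes, and Abhd6 in spiny neurons.

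Within the interneurons, Cnr1 divided the 3 clusters sharply. The cluster led by Pthlh and Kit had 518, 522 and 445 CPM by library, from 23, 48 and 53 nuclei. In it 80.6% of nuclei had a Cnr1 UMI, 58.1% had at least 3, and the highest nucleus had 14. Pvalb, a marker of fast-spiking cells, was not among its 10 leading genes, so its level is not given as that of fast-spiking cells. Without a nucleus filter Pvalb was among the leading genes of another cluster, led by Yjefn3 and Kcns3. Both genes were here among the leading genes of the cluster led by Trh, Chrna3 and Vip. The cluster led by Trh, Chrna3 and Vip was at 164, 127 and 101 CPM, and the cluster led by Npy, Sst and Nos1 was at 19.8, 17.1 and 13.1 CPM. The order of the 3 clusters was the same in every library, and the Npy, Sst and Nos1 cluster was at the level of spiny neurons. The gap between the first and the last cluster was seen in the plot of Cnr1 by cluster.

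Splitting the same interneurons by single markers gave a like picture in part, with nuclei that carried several markers counted under each. Nuclei with a Pthlh UMI had 441 CPM of Cnr1 (404 to 480) over the 3 libraries, and 76.9% of the 143 nuclei had a Cnr1 UMI. Nuclei with a Kit UMI had 384 CPM (348 to 421) in 140 nuclei, and the nuclei with Pvalb, the parvalbumin of fast-spiking cells, had 159, 220 and 688 CPM by library, from 4, 12 and 8 nuclei, so that urolithin A stood apart. In contrast, nuclei with Nos1, the neuronal nitric oxide synthase, had 16.7 CPM (7.66 to 31.8), from 9 UMIs in 75 nuclei. Nuclei with Sst, the somatostatin gene, had 77.4 CPM in 131 nuclei, and those with Npy 78.5 CPM in 139 nuclei. Both lay above the 15.8 CPM of the cluster led by Npy, Sst and Nos1. Nuclei with Calb2, the calretinin gene, had 178 CPM in 54 nuclei, and those with Htr3a 85.8 CPM in 83 nuclei. High values were not limited to Pthlh, Kit and Pvalb. Nuclei with Vip, Cck or Crh had 405, 360 and 339 CPM, from 6, 11 and 12 nuclei. The clusters were built from all variable genes, so these gaps describe them and are no test.

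Glutamatergic neurons likewise held 1 cluster with Cnr1 and 1 nearly without. The cluster led by Rtn4r, Cck and Bdnf had 162, 96.7 and 142 CPM by library, the last from 15 nuclei. The cluster led by Ccn2 and Nxph3, known markers of the deepest cortical layer, had 0, 4.63 and 0 CPM from 41, 74 and 6 nuclei. Low anxiety was the highest library for the Rtn4r and Cck cluster, and high anxiety was lower than it by a log2 ratio of -0.75 (-1.10 to -0.39). A pair of unnamed neuronal clusters also carried Cnr1, at 58.7 CPM for the cluster led by Spp1, Crh and Galr1 and 63.9 CPM for the cluster led by Itgb6 and Grpr.

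**Figure D3:**
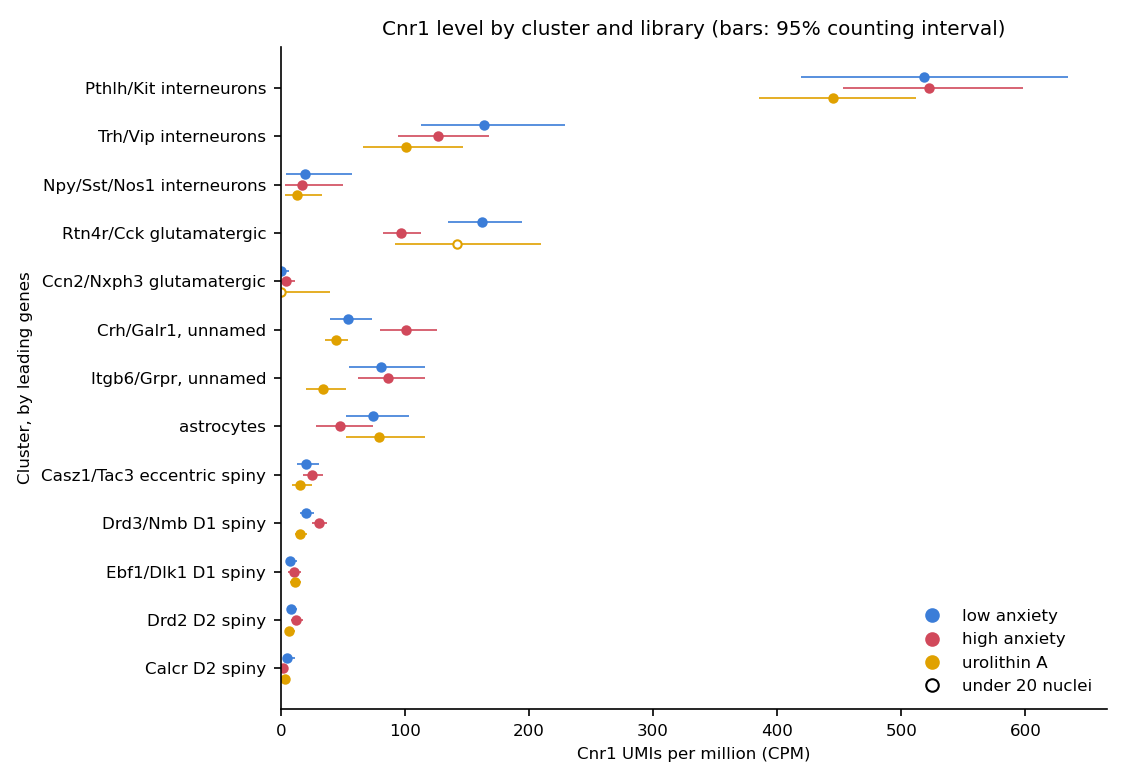
Cnr1 level (CPM) in 13 clusters named by leading genes, with 1 point per library, 95% counting intervals and open points for under 20 nuclei. The Pthlh and Kit interneurons lay between 445 and 522 CPM, and the Npy, Sst and Nos1 interneurons between 13.1 and 19.8 CPM.

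The 2-AG synthases had different maps. Dagla, the lipase known for synaptic 2-AG, was found at similar levels in nearly all classes and was almost missing from oligodendrocytes. In oligodendrocytes it had 1 UMI in each library, a level of 0.493 CPM (0.102 to 1.44) over 2672 nuclei. Committed oligodendrocyte precursors were low as well, at 8.82 CPM (1.82 to 25.8) from 3 UMIs in 79 nuclei. In D1 neurons Dagla stood at 47.3, 41.7 and 42.6 CPM by library, and in D2 neurons at 43.2, 40.5 and 42.3 CPM. Astrocytes were highest at 64.9 CPM (range of the libraries 55.9 to 77.5) and microglia second at 52.8 CPM (45.4 to 60.1). From astrocytes down to oligodendrocyte precursors at 32.2 CPM, the range of each class overlapped that of its neighbour in the order. D1 and D2 neurons, which were many and deeply sequenced, held 31.6% and 22.2% of Dagla UMIs, beside 27.3% and 20.0% of the UMIs of all genes.

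Daglb, the isoform known for its part in myeloid cells, was highest in microglia. It stood there at 279 CPM (225 to 342), 270 (227 to 320) and 288 (233 to 353) by library, with all 3 intervals overlapping. The next class, glutamatergic neurons, had 65.2 CPM over the 3 libraries, 4.26-fold below microglia. After thinning, 34.5% of microglial nuclei (30.1% to 39.1%) had a Daglb UMI, against 8.67% of oligodendrocytes and 4.91% of D1 neurons. D2 neurons were last at 32.3 CPM, with a range that overlapped those of D1 neurons, eccentric neurons and astrocytes. Microglia were 6.01% of nuclei, held 2.15% of the UMIs of all genes and held 12.8% of Daglb UMIs.

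Mgll, the main hydrolase of 2-AG, was highest in astrocytes. Astrocytes had 737 CPM (665 to 816), 892 (802 to 990) and 827 (733 to 929) by library. Low anxiety was the lowest of the 3, and the interval of urolithin A overlapped both others. Committed oligodendrocyte precursors, a small class on the way from precursor to oligodendrocyte, followed at 344 CPM (range 249 to 412), from 79 nuclei in all. Mature oligodendrocytes were last at 31.2 CPM (29.0 to 37.4), and their precursors had 131 CPM (109 to 148), so that the precursor, committed and mature stages stood at a middle, a high and a low level. After thinning, 64.8% of astrocyte nuclei (60.1% to 69.3%) had an Mgll UMI.

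Among neurons, Mgll was higher in D1 neurons than in D2 neurons in every library: 171, 177 and 182 CPM against 159, 142 and 151 CPM. Inside the D1 class the cluster led by Drd3 and Nmb had 192 CPM (183 to 201), while the cluster led by Ebf1 and Dlk1 had 154 CPM (144 to 164), within the D2 range. In interneurons Mgll ran against Cnr1: the Pthlh and Kit cluster had 78.7 CPM (62.4 to 98.0), and the Npy, Sst and Nos1 cluster 161 CPM (131 to 196). Inside the oligodendrocytes, the cluster led by Slc5a11 and Klk6 had 61.4 CPM (50.3 to 74.2) and the largest cluster 18.4 CPM (14.2 to 23.3), in the same direction in each library.

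Abhd6, a membrane-bound hydrolase that takes a smaller share of 2-AG on the receiving side of the synapse, was highest in spiny neurons among the named classes. Eccentric neurons had 239 CPM (216 to 262), 301 (278 to 326) and 323 (294 to 355) by library, with low anxiety below the others. D1 neurons had 206, 224 and 237 CPM and D2 neurons 205, 229 and 222 CPM, and the ranges of D1 and D2 overlapped. The 3 spiny classes together held most Abhd6 UMIs, at 32.3%, 23.2% and 14.8% for D1, D2 and eccentric neurons. Their shares of the UMIs of all genes were 27.3%, 20.0% and 9.76%. Glial classes were lower, from 134 CPM in astrocytes to 47.1 CPM in committed oligodendrocyte precursors. Single clusters of other neurons reached the level of spiny neurons. The glutamatergic cluster led by Rtn4r, Cck and Bdnf had 222 CPM (204 to 241), and the unnamed Itgb6 and Grpr cluster 270 CPM (244 to 298). The D2 cluster led by Drd2 and Adora2a had 202 CPM (191 to 214), and the eccentric cluster led by Stac and Exph5 154 CPM (117 to 200).

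Faah and Napepld, which break down and make N-acylethanolamines, were both highest in oligodendrocytes. Faah had 117 CPM (99.3 to 136), 108 (95.6 to 122) and 114 (100 to 130) there by library. Napepld had 53.3 CPM (41.8 to 66.9), 52.4 (43.9 to 62.1) and 47.1 (38.4 to 57.2) in the same order. Neither gene set the libraries apart in these cells. Napepld in the next class, the committed precursors, was 3.45-fold lower at 14.7 CPM, from 5 UMIs. In D1 neurons it was at 6.48 CPM, and no neuronal class passed 10 CPM in pooled nuclei. Faah was less confined, with 67.9 CPM in glutamatergic neurons, 31.0 CPM in D1 neurons (29.9 to 32.1) and 20.7 CPM in D2 neurons (19.4 to 21.5), so that D1 lay above D2 in every library. Faah was lowest in microglia, with 4 UMIs in 631 nuclei.

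Across the oligodendrocyte clusters the pair parted. The cluster led by Ackr4 and Tnfaip6 had the highest Faah of the 3 large clusters, 231 CPM (195 to 272), and the lowest Napepld, 14.4 CPM (6.57 to 27.3). The Slc5a11 and Klk6 cluster had 93.0 CPM of Faah (79.2 to 108) and 67.2 CPM of Napepld (55.6 to 80.5), and the largest cluster 99.8 CPM (89.8 to 111) and 47.7 CPM (40.9 to 55.3). For Faah the Ackr4 cluster was highest in each library, at 239, 224 and 234 CPM. For Napepld it was lowest in each library, at 18.4, 17.2 and 8.67 CPM, from 2 to 4 UMIs a library.

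Because Faah and Napepld shared their leading class, their promoters are shown with that of Mgll, which was lowest in that class. Each is the 250 bases before the start site in RefSeq on the build GRCr8, written 5′ to 3′ on the gene's strand, with capitals marking GC boxes (GGGCGG, or CCGCCC on the other strand). Faah lies at chr5:134735397-134735646 on the minus strand, Napepld at chr4:14253010-14253259 on the plus strand and Mgll at chr4:122749186-122749435 on the plus strand.
Faah: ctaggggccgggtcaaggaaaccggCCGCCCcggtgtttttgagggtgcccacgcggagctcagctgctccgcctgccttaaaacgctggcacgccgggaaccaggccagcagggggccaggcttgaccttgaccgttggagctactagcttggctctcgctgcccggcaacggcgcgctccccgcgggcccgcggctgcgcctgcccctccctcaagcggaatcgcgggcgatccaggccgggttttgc
Napepld: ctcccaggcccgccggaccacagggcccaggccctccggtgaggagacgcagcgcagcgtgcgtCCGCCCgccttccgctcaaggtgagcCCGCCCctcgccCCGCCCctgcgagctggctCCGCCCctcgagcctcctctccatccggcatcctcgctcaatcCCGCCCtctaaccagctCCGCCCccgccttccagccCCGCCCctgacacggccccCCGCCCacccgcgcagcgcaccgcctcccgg
Mgll: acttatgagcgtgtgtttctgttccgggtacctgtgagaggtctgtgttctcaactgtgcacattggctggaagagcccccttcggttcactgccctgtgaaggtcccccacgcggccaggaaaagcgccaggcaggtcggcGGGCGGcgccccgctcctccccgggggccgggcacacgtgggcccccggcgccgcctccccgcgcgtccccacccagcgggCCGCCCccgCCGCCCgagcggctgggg
The GC box was matched 1 time in Faah, 8 times in Napepld and 3 times in Mgll, and 30.5% of 33469 rat promoters of this length held at least 1. Of the 5 genes with a promoter in the table, Daglb and Abhd6 held none, and Daglb alone held a TATA box (TATAAA, either strand), which 12.9% of all promoters held. The letters ACAAAG, the core that Sox factors are known to bind, or CTTTGT on the other strand, were in none of the 5 windows and in 16.3% of all promoters. GC content was 70.4% in Faah, 77.2% in Napepld and 72.4% in Mgll, against a median of 51.2% over all promoters. A match describes the letters alone, and a window without one says nothing of the factor.

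The genes whose level followed each member most closely were found over the 24 clusters with at least 50 nuclei, by Pearson's r of log2(CPM + 1) in pooled libraries, as a description. For Cnr1 they were Fndc5 (r = 0.81), Clmp (0.79) and Coq9 (0.76). Daglb went with Lcp1 (0.83), Cd180 (0.81) and Ripk2 (0.80), of which Lcp1 and Cd180 are known from blood-derived cells. Dagla went with Dnm1l and LOC102549249 (0.91 each) and Pced1b (0.90), and Abhd6 with C2cd2l (0.90), Sh2d5 and Smpdl3b (0.88 each). Mgll went with Ephx1 (0.78), Papss2 (0.77) and Rad21l1 (0.76). Faah went with Samd12 and Pak5 (0.85 each) and Strn4 (0.84), and Napepld with Ift80 (0.86), Cab39l and Cpd (0.85 each). Among the members themselves r was highest for Faah with Napepld (0.71) and lowest for Dagla with Napepld (-0.76). The clusters share libraries and differ in depth, which these values do not take out.

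For differences between libraries, a gene counted as measured in a class with at least 100 UMIs in 1 of the compared libraries, and a ratio past 0.32 on the log2 scale (25% higher, or the inverse of that ratio) was counted in place of a test, in classes with at least 50 nuclei per library. In D1 neurons 6 of the 7 genes were measured between high and low anxiety, and Cnr1 alone was past the fold, in the higher direction. Over all 7343 genes measured there, 7.99% were past the fold in the higher and 11.1% in the lower direction. Between urolithin A and high anxiety, Cnr1 was again the 1 of 6 past the fold, now lower, where 4.64% of all measured genes were lower and 8.07% higher. Between urolithin A and low anxiety 0 of 5 measured members passed, with 9.27% of all genes higher and 7.75% lower, and Cnr1 fell short of the count minimum. The first and second comparison share the high anxiety library, so they are not independent.

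Cnr1 in D1 neurons had 72, 122 and 69 UMIs by library, which made 16.1 CPM (12.6 to 20.2), 23.8 (19.7 to 28.4) and 13.7 (10.6 to 17.3). High anxiety was the high library, its interval clear of that of urolithin A and overlapping the end of that of low anxiety. The log2 ratio was 0.57 (0.13 to 1.01) for high over low anxiety, 1.48-fold, and -0.80 (-1.25 to -0.36) for urolithin A over high anxiety, 1.74-fold lower. For urolithin A over low anxiety it was -0.23 (-0.73 to 0.27). D1 nuclei with a Cnr1 UMI were 8.29%, 14.8% and 8.77% without thinning and 1.97% (1.08% to 3.29%), 3.78% (2.44% to 5.57%) and 2.52% (1.50% to 3.95%) at 1500 UMIs, where the intervals overlapped. The thinned shares by library and the pooled D1 share given above do not come from the same thinned counts. The intervals do not cover the variation that thinning adds. D1 nuclei were deepest in high anxiety, with medians of 6059, 7704 and 6704.5 UMIs.

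The D1 clusters were read apart. In the cluster led by Drd3 and Nmb, genes of the ventral striatum, Cnr1 stood at 20.7, 30.6 and 15.7 CPM by library, and the log2 ratios were 0.57 (0.10 to 1.05) for high over low anxiety and -0.97 (-1.52 to -0.43) for urolithin A over high anxiety. In the cluster led by Ebf1 and Dlk1 it stood at 7.58, 10.4 and 11.5 CPM, from 12, 18 and 28 UMIs, and the ratios were 0.45 (-0.68 to 1.64) and 0.15 (-0.75 to 1.09). High anxiety was thus above low anxiety in both clusters, urolithin A was below high anxiety in the Drd3 and Nmb cluster, and whether the clusters differ in these ratios was not tested. Clustering the nuclei without a filter left the Drd3 and Nmb cluster without a name, and the D1 ratios were then 0.35 and -0.44. With nuclei held to 1000 genes or more and 1% mitochondrial UMIs or fewer, clustered again, the ratio of high over low anxiety was 0.04. Low anxiety D1 nuclei then lay in clusters apart from the other libraries. The cluster led by Nmb, Il20ra and Drd3, of 1, 167 and 140 nuclei by library, was left without a name. The cluster led by Plcz1, Drd3 and Slc35d3, of 279, 0 and 2 nuclei, kept the D1 name. That ratio thus compared low anxiety D1 nuclei with a Drd3 cluster to high anxiety D1 nuclei without it. With the stricter filter and the first names kept the ratio of high over low anxiety was 0.43.

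Markers of other cells rich in Cnr1 were set beside this difference in D1 nuclei. The summed level of 17 interneuron markers was 989, 990 and 885 CPM by library, with Lhx6 at 0 in the first and second and Pvalb and Vip at 0 in the third. The 14 astrocyte markers summed to 676, 787 and 638 CPM, with Fgfr3, Fgfr3 and S1pr1 at 0, and were thus highest in high anxiety, as Cnr1 was. The 12 glutamatergic markers summed to 1359, 1469 and 1417 CPM, with 3, 3 and 5 of them at 0, Slc17a6 in every library and Slc17a7 in urolithin A. Their part in the Cnr1 difference was not tested.

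Other neurons were read for the same pattern of Cnr1. In D2 neurons it had 25, 31 and 17 UMIs, and 8.15 CPM in high anxiety against 7.25 in low anxiety and 4.86 in urolithin A, too few for the count. In eccentric neurons it was at 17.9, 22.5 and 16.2 CPM, with overlapping intervals. In the unnamed cluster led by Spp1, Crh and Galr1, Cnr1 was at 54.6, 101 and 44.2 CPM by library, from 42, 79 and 92 UMIs, too few for the count. The log2 ratios there were 0.89 (0.34 to 1.47) and -1.20 (-1.65 to -0.75), and 46 of the 459 nuclei held 69.0% of its Cnr1 UMIs. In the unnamed cluster led by Itgb6 and Grpr, Cnr1 was at 81.1, 86.1 and 33.9 CPM, from 30, 44 and 20 UMIs, also too few. The ratio there was -1.34 (-2.18 to -0.55) for urolithin A over high anxiety, and 20 of the 195 nuclei held 76.6% of its Cnr1 UMIs. The intervals do not cover such spread between nuclei. In GABAergic interneurons the ratios were 0.14 (-0.17 to 0.45) and -0.26 (-0.52 to 0.00). The glutamatergic cluster led by Rtn4r, Cck and Bdnf went the other way, at 162, 96.7 and 142 CPM, the last from 15 nuclei. Its log2 ratio of high over low anxiety was -0.75 (-1.10 to -0.39). The D2 cluster led by Calcr was also lowest in high anxiety, at 5.26, 1.89 and 3.31 CPM from 6, 3 and 6 UMIs. Astrocytes likewise went the other way, at 74.7, 47.5 and 79.4 CPM from 38, 19 and 27 UMIs, with intervals that overlapped. Whether these clusters differ from each other in the size of the ratio was not tested.

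**Figure D4:**
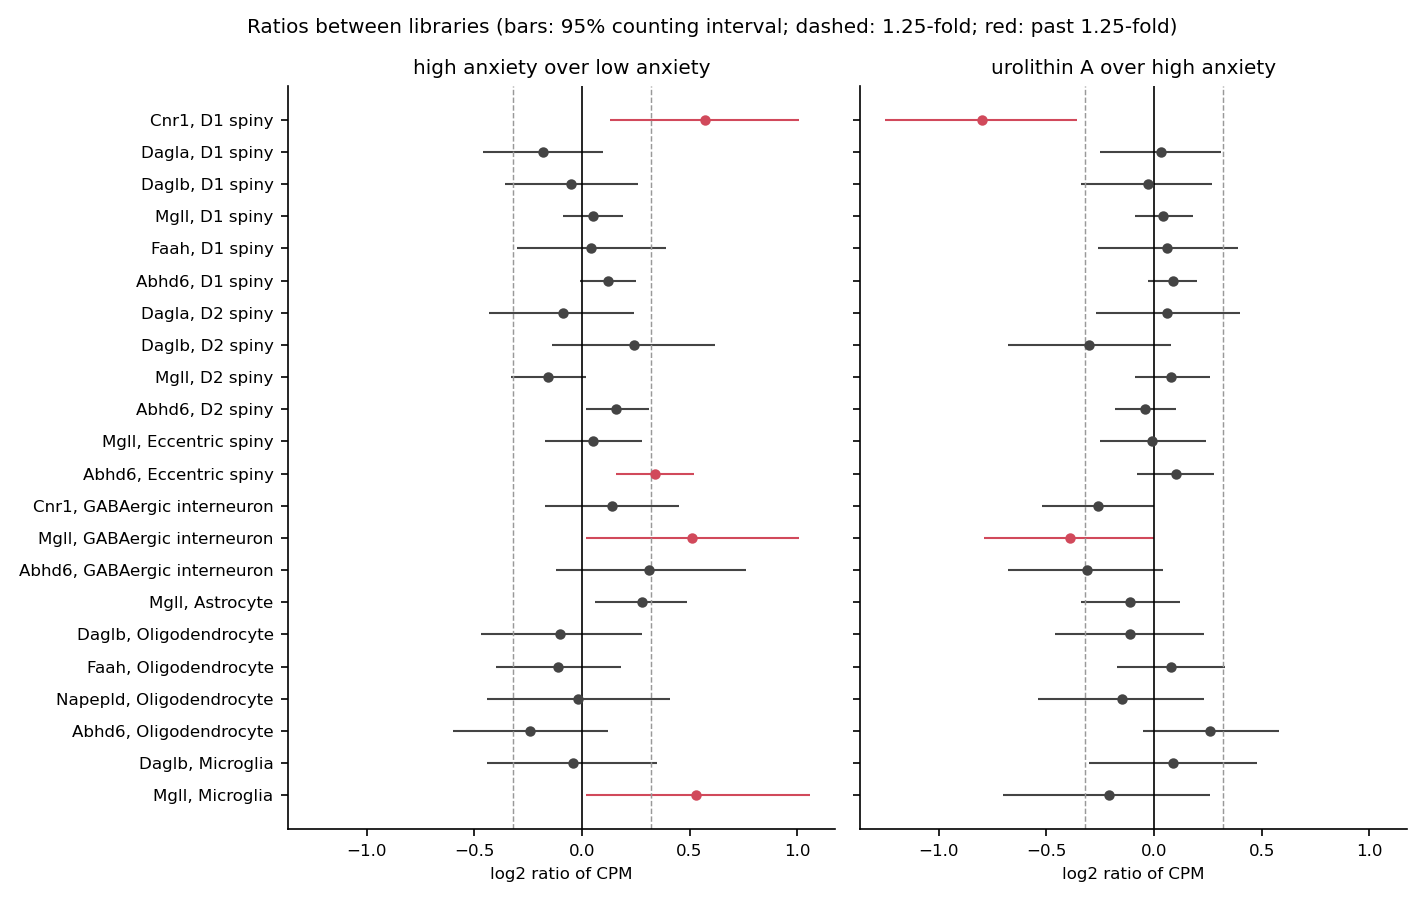
Log2 ratios between libraries for each member measured in a class, with 95% counting intervals, high over low anxiety on the left and urolithin A over high anxiety on the right. Dashed lines mark 0.32 in either direction and red points are past it; Cnr1 in D1 neurons lay at 0.57 and -0.80, and most other intervals spanned 0.

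In D2 neurons none of the 4 measured members (Dagla, Daglb, Mgll and Abhd6) passed the fold in any comparison, with 7.82% of 6257 genes higher and 10.6% lower between high and low anxiety. The shares of all genes were 10.3% higher and 4.82% lower for urolithin A over high anxiety, and 11.1% and 7.42% for urolithin A over low anxiety. Daglb came nearest, at 36.3 CPM in high anxiety and 29.5 in urolithin A, a log2 ratio of -0.30 (-0.68 to 0.08). In oligodendrocytes 0 of 4 measured members (Daglb, Faah, Napepld and Abhd6) passed in any comparison, where 18.0%, 8.75% and 14.2% of all measured genes passed in either direction for high over low anxiety, urolithin A over high anxiety and urolithin A over low anxiety. In oligodendrocyte precursors no member reached 100 UMIs.

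Abhd6 in eccentric neurons was the 1 of 2 measured members past the fold between high and low anxiety, at a log2 ratio of 0.34 (0.16 to 0.52), where 11.1% of all genes were higher and 11.3% lower. It was past the fold also for urolithin A over low anxiety, at 0.44 (0.24 to 0.63), where 9.93% were higher, and not for urolithin A over high anxiety, at 0.10 (-0.08 to 0.28), where 8.66% were higher and 8.11% lower. A pair of small eccentric clusters held mostly low anxiety nuclei, 103 of 130 and 17 of 20. Without them the ratios were 0.24 and 0.34, and the first then missed the fold. The largest eccentric cluster, led by Mdfic and Casz1, was by itself past the fold at 0.33 (0.12 to 0.53) and 0.39 (0.17 to 0.61). The cluster led by Chst9 and Col14a1 went the other way between high and low anxiety, at -0.25 (-0.77 to 0.28). In D1 neurons Abhd6 was also higher for urolithin A over low anxiety, at 0.20 (0.08 to 0.33), which is short of the fold.

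Mgll passed the fold in the smaller classes. In GABAergic interneurons it was at 92.2, 131 and 99.7 CPM by library, high anxiety being the high library. It was 1 of 3 measured members past the fold between high and low anxiety, at 0.51 (0.02 to 1.01), with 17.2% of all genes higher and 11.0% lower, and 1 of 3 between urolithin A and high anxiety, at -0.39 (-0.79 to 0.00), with 12.2% lower and 14.4% higher. Between urolithin A and low anxiety 0 of 3 passed, with 14.8% of genes higher and 8.36% lower. The Mgll ratio of high over low anxiety depended on the clusters, at 0.05 with the stricter filter, 0.11 without a filter and 0.20 at the coarser resolution of 0.5. Astrocyte markers in the interneurons summed to 369, 385 and 310 CPM by library, with 5, 3 and 2 of 14 at 0, and their part was not tested. In microglia Mgll was at 142, 206 and 178 CPM, and was 1 of 2 measured members past the fold between high and low anxiety, at 0.53 (0.02 to 1.06), where 20.6% of all genes were higher and 9.65% lower; for urolithin A over high anxiety 0 of 2 passed, with 3.39% higher and 13.7% lower. The microglial ratio stood beside a median of 0.11 over all genes measured there. Astrocyte markers in microglia summed to 797, 739 and 782 CPM by library, with 4, 5 and 5 of 14 at 0. Their part in the microglial Mgll difference was not tested. In astrocytes themselves Mgll, the sole member measured, was short of the fold at 0.28 (0.06 to 0.49) for high over low anxiety, -0.11 (-0.34 to 0.12) for urolithin A over high anxiety and 0.16 (-0.06 to 0.39) for urolithin A over low anxiety, where 28.4%, 21.2% and 22.3% of all genes passed in either direction.

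Genes around the 7 were read from 4 lists in D1 and D2 neurons. Of 20 other endocannabinoid enzymes and carriers, 6 were measured in D1 neurons and 0 passed the fold between high and low anxiety or between urolithin A and high anxiety. Of 21 genes of the receptor path that feeds diacylglycerol to the lipases, 13 were measured in D1 neurons, and 0 passed between high and low anxiety. Of 18 partners and effectors of CB1, 14 were measured in D1 neurons. The beta-arrestin Arrb1 was higher between high and low anxiety, at 0.38 (0.12 to 0.64). It was the 1 list gene of 33 measured past the fold there, 3.03%, beside 7.99% of all genes higher and 11.1% lower. Between urolithin A and high anxiety the inhibitory G protein subunit Gnai1 was higher, at 0.52 (0.36 to 0.68), and Gnao1 lower, at -0.35 (-0.48 to -0.23). These were 1 higher and 1 lower of the 14, where 8.07% of all genes were higher and 4.64% lower. Between urolithin A and low anxiety, 3 of 33 measured genes of the lists, 9.09%, were past the fold in D1 neurons, all higher, which is near the 9.27% of all genes that were higher there. Named after their values were seen, they were Arrb1 at 0.45 (0.19 to 0.71), Kcnj9 at 0.36 (0.04 to 0.69) and the muscarinic receptor Chrm1 at 0.33 (0.08 to 0.58). None of the 9 other cannabinoid-responsive receptors reached the count minimum in D1 or D2 neurons.

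In D2 neurons 4 of 34 measured genes of the lists were past the fold between high and low anxiety, 5.88% higher and 5.88% lower, where 7.82% and 10.6% of all genes were. The muscarinic receptor Chrm3 was at 61.2, 86.7 and 40.9 CPM by library, with ratios of 0.50 (0.25 to 0.76) and -1.08 (-1.38 to -0.80). Gnai1 was at 72.8, 55.7 and 94.1 CPM, with ratios of -0.39 (-0.66 to -0.12) and 0.76 (0.50 to 1.01), opposite in direction to Chrm3. The serotonin receptor Htr2a was lower in high than in low anxiety, at -0.67 (-1.12 to -0.22), and the potassium channel Kcnj9 higher, at 0.46 (0.08 to 0.86). Gde1, which releases N-acylethanolamines from glycerophospho precursors, was higher in urolithin A than in high anxiety at 0.42 (0.25 to 0.59), as was Gnai2 at 0.54 (0.10 to 0.99). With Gnai1, they were the 3 of 34 measured list genes that were higher there, 8.82%, beside 10.3% of all genes. Among the lower ones Chrm3 alone is given here, where 4.82% of all genes were lower. Between urolithin A and low anxiety 7 of 35 measured list genes were past the fold in D2 neurons, 11.4% higher and 8.57% lower beside 11.1% and 7.42% of all genes, shares near each other. Those higher were Gde1, Gnai1, Kcnj9 and Abhd16a and those lower Chrm3, Htr2a and Dgkz, at ratios between -0.65 and 0.61, all named after their values were seen. The median ratio of each list in D1 neurons lay between -0.19 and 0.13, beside medians of 0.00 and 0.02 over all measured genes.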

How the data were processed

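Nuclei were profiled with 10x 3' chemistry 3.1, per the labels. The authors deposited UMI counts for each feature and barcode, from Cell Ranger 7.1.0 (per the file headers) and the genome build that the submitters' processing notes name, mRatBN7.2. The sources used here do not give whether introns were counted or free RNA removed. Of 3619, 4066 and 3739 barcodes by library, 3476, 3810 and 3520 passed the filter (500 genes or more, 5% mitochondrial UMIs or fewer), and 97, 116 and 99 likely doublets (Scrublet in scanpy 1.11.5, 0.8% for every 1000 nuclei) were then removed. Counts were scaled to 10000 and log-transformed; 2000 variable genes, standardised within each library, gave 30 components and 15 neighbours for Leiden clustering at resolution 1 (leidenalg 0.10.2, seed 7). Clusters were named by whichever of 16 marker lists had the highest mean log2 fold, needing 3 markers raised 2-fold, and stayed unnamed where markers of another class led their 10 leading genes; 172 of 181 marker symbols matched. Names are rebuilt ones, and no annotation by the authors was used.

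Counts were summed over the nuclei of a class in each library. Levels carry exact Poisson intervals, shares Clopper-Pearson intervals and ratios exact conditional intervals, all at 95%. The ratios were also run on counts simulated with counting error alone, which cannot show how libraries or animals vary. The members and lists were chosen with earlier results of these data known. By rule the text names all members, up to 4 genes of each list with the ratio furthest from 0 in D1 or D2 neurons, the 3 most abundant of each list and the 3 most alike to each member; of the first kind those past the fold are printed, and any beyond 4 were named after their values were seen. Some list results are not reported here. CPM is the count times 1000000 over the class total. Promoters were matched by symbol to RefSeq (GRCr8), 5 of 7. Alternatives changed the nucleus filter, doublets, resolution, cluster mix, scaling and count minimum.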

Additional observations from a re-analysis of the deposited data

How the results depend on the processing

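No paired analysis was possible because each group was 1 library, and for the same reason leaving out replicates was not run. The 63 ratios of measured members were recomputed under 10 alternatives, where these gave a value, 558 values in all: 536 lay within the main counting interval, 22 moved out of it, and 0 of those past the fold changed direction. Of the 22 moved values 12 came with the stricter nucleus filter and new clusters. The stricter filter with the first names kept, and the eccentric class without the clusters mostly of low anxiety, were chosen after seeing the data.

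For D1 neurons the count of members past the fold went from 1 to 0 between high and low anxiety, and from 1 to 0 between urolithin A and high anxiety, under the stricter filter (with new clusters or the first names) and with a minimum of 200 UMIs, and the second also without a nucleus filter. With the stricter filter and new clusters the first Cnr1 ratio was 0.04, inside the fold. The Nmb and Drd3 cluster of high anxiety then had no name, while that of low anxiety kept the D1 name. In the other cases Cnr1 missed the count minimum while its ratio stayed past the fold: 0.43 and -0.75 with the first names kept, -0.84 with new clusters and -0.44 without a filter. For D2 neurons the count for urolithin A over high anxiety went from 0 to 1 with equal weight for clusters (Daglb, -0.35), with the median of all genes subtracted (Daglb, -0.33), and with a minimum of 30 UMIs, which lets in Cnr1 (-0.74). List genes past the fold between high and low anxiety went from 1 to 3 (stricter filter, new clusters) and 0 (first names kept) in D1 neurons, and from 4 to 1 (stricter filter, either way) and 2 (at least 200 UMIs) in D2 neurons.

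Levels moved as follows. Cnr1 in GABAergic interneurons was 156 CPM under the stricter filter against 245, where a cluster led by Vip, Spp1 and Crh joined the class. Mgll in astrocytes was 699 CPM with doublets kept against 811. Faah in oligodendrocytes was 127 CPM under the stricter filter against 112, and Napepld 40.1 there and 40.7 with doublets kept against 50.7; the cause was not tested. Shares of nuclei with a UMI follow depth: thinned to 1000 UMIs and unthinned they were 16.2% and 48.7% for Cnr1, 53.3% and 74.8% for Mgll, 10.2% and 20.5% for Faah, 5.39% and 10.7% for Napepld, and 23.5% and 69.5% for Abhd6, with 23.8% for Daglb at 1000 UMIs and 14.8% for Dagla unthinned. Under no filter and at resolution 0.5 the Crh and Galr1 cluster joined the interneurons, and the Cnr1 ratio of urolithin A over high anxiety was -0.94 and -0.92 there. With 100 UMIs in a class, ratios near the fold cannot be told from 0.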

Other observations

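Of the related genes on the lists, the 3 most abundant of each were read for their classes over the 3 libraries. Among the other enzymes Gdpd1 was broad, from 379 CPM in committed oligodendrocyte precursors to 24.2 CPM in microglia, Gde1 was highest in oligodendrocytes (528 CPM) and Abhd12, a further 2-AG hydrolase known from microglia, was highest in microglia (660 CPM). Cnr2, the CB2 receptor, stood at 80.5 CPM in microglia and at 0.614 CPM in D1 neurons. The nuclear receptor Ppara, which N-acylethanolamines can activate, stood at 151 CPM in astrocytes and 0.614 CPM in D1 neurons, and Trpv2 at 55.1 CPM in cholinergic interneurons. Sgip1, which binds CB1 and slows its uptake, was spread over neurons, astrocytes and oligodendrocyte precursors. It stood at 397 CPM in GABAergic interneurons, 352 CPM in D1 neurons, 329 CPM in astrocytes and 327 CPM in oligodendrocyte precursors, and so did not share the narrow map of Cnr1. Cacna1a, a calcium channel that CB1 can inhibit, was likewise broad among neurons, from 725 CPM in eccentric neurons to 926 CPM in GABAergic interneurons, and Adcy5 was highest in D1 neurons (943 CPM). Grm5, the metabotropic glutamate receptor upstream of Dagla, had 4040 CPM in D1 neurons, 4115 in D2 neurons and 44.0 in oligodendrocytes; Dgkb had 4200 CPM in D2 neurons and Plcb1 3090 CPM in eccentric neurons.

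Some further genes were chosen after their values were seen. Naaa, the acid hydrolase of N-acylethanolamines, stood at 218 CPM in microglia and 1.81 CPM in oligodendrocytes, the class with the most Faah. Plaat3, an acyltransferase able to make their precursors, stood at 152 CPM in oligodendrocytes and 1.77 CPM in D1 neurons, and Inpp5d at 1426 CPM in microglia.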
